A study of Mus musculus with 16 samples.

Results

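The genes described here encode the enzymes that write N6-methyladenosine (m6A) into RNA and the subunits that work with them. These are Mettl3, Mettl14, Wtap, Virma, Rbm15, Rbm15b, Zc3h13 and Cbll1 of the nuclear writer complex, and Mettl16, a separate m6A methyltransferase. They were chosen by symbol, matched to the gene identifiers of the deposited tables with the version removed. All 9 were found among the 78317 genes listed, and all 9 passed the filter on low counts, which left 14781 genes tested. RNA was measured in whole liver of wild type (wt) C57BL/6J mice, an inbred strain, in 4 groups of 4 libraries. Females and males ate either normal chow with 4.5% of its calories from fat (LabDiet) or a high fat diet with 60% (Research Diets). The diets were given for 10 weeks, and the mice were 6 weeks old on arrival. The diets are from different makers and can differ in more than fat. The title of the series concerns m6A in females, but what was deposited is RNA abundance; m6A itself was not among the values used here.

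m6A is a methyl mark on adenosines inside messenger RNA, and it affects how a transcript is spliced, exported, translated and degraded. METTL3 carries out the methylation and METTL14 holds the RNA beside it; the pair works as a heterodimer. WTAP anchors that pair to a larger assembly of VIRMA, ZC3H13, CBLL1 (also called HAKAI) and either RBM15 or RBM15B, a pair of related RNA-binding proteins that bring the complex to its targets. METTL16 works alone, methylates the U6 spliceosomal RNA and hairpins in the transcript of Mat2a, and so is tied to the supply of S-adenosylmethionine, the methyl donor. In liver, m6A writers have been studied for their part in lipid metabolism.

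Total expected counts per library lay between 22228115 and 41420589, and each of the 9 genes had at least 111 counts in every library. The labels do not say which animal each library came from, so p-values measure the spread between these samples. Xist reached at least 116 CPM (a gene's count as a share of the scaled library, the unit used below for single genes) in every library labelled female and at most 1.6 CPM in every library labelled male, and 4 genes of the Y chromosome (Uty, Kdm5d, Ddx3y, Eif2s3y) separated the sexes the other way. Of 6 hepatocyte markers 5 were matched. Their summed level was 57200 to 79000 CPM in high fat diet males and 85100 to 93800 CPM in normal diet males. In females on either diet it was 79600 to 117000 CPM. Replicates 2 and 3 of males on the high fat diet were much more alike than any other pair of one group (chi-square per gene 4, against 20.7 for the next closest pair in another group), though they differed by more than counting error. They were kept as separate samples, and where averaging them ends a call that is described below, the averaged value or its loss is given beside it. In bulk tissue, fewer cells of a type and less RNA per cell cannot be told apart.

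Levels per transcript length (TPM, in which every library sums to one fixed total) set Wtap apart from the rest. Its mean over the 16 libraries was 22.3 TPM, at percentile 80.2 of the tested genes, and its lowest library in each group lay above the highest library of the next gene. Mettl16 followed at 5.64 TPM, then Virma at 4.40, Mettl3 at 4.33, Cbll1 at 4.00, Zc3h13 at 3.28, Mettl14 at 3.23 and Rbm15b at 2.96 TPM. Rbm15 was last at 2.08 TPM, at percentile 35.8. Wtap therefore made up 36.3% to 49.8% of the summed TPM of the 9 genes.

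Below Wtap the order was mostly not resolved. In both normal diet groups every gene from place 2 to place 9 overlapped its neighbour. On the high fat diet Rbm15 came last without overlap with Rbm15b in either sex: 1.57 ± 0.400 against 2.73 ± 0.227 TPM (SD, n = 4) in females and 1.66 ± 0.141 against 3.13 ± 0.458 TPM in males. In females on the high fat diet Mettl14 (3.88 ± 0.168 TPM) also lay above Zc3h13 (3.10 ± 0.238 TPM) without overlap. Rbm15 also varied most among the 9 genes, from 1.17 to 3.44 TPM over all libraries, a 2.94-fold range, while Wtap spanned a 1.57-fold range.

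**Figure D1:**
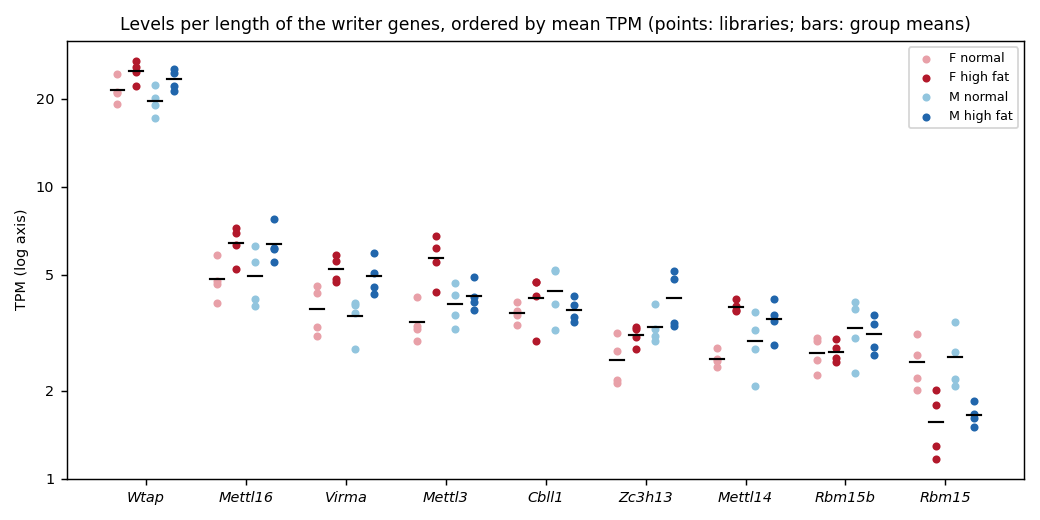
TPM (log axis) of the 9 writer genes in each library, ordered by mean TPM, with points for libraries coloured by group and bars for group means. Wtap stands above all others between 17.2 and 27.0 TPM, and Rbm15 drops to between 1.17 and 2.01 TPM in the high fat diet groups.

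The start-site sequences of the genes called in single comparisons below give the genomic setting of Mettl3 and Zc3h13. They are 240-base windows from RefSeq (GRCm38.p6), from 250 to 11 bases before the start, that held no annotated exon base; of the 9 genes 7 had an entry. Mettl3 lies on the minus strand at chr14:52305135-52305374 and Zc3h13 on the plus strand at chr14:75284116-75284355. Capitals mark a match to 1 of 5 motifs searched on both strands. These were the CCAAT box, the GC box GGGCGG, the E-box CACGTG, the cyclic AMP element TGACGTCA and the TATA box TATAAA.
Mettl3: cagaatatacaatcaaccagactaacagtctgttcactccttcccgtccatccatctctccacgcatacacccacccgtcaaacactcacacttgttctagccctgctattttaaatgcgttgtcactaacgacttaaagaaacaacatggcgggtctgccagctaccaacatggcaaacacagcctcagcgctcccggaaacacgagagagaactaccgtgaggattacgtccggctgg
Zc3h13: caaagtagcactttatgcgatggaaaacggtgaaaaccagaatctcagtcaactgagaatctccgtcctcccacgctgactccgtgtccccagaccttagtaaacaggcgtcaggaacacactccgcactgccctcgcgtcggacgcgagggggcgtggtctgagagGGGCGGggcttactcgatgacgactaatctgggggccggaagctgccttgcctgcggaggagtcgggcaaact
The Mettl3 window held none of the motifs and 12 CpG sites, and the Zc3h13 window held 1 GGGCGG, 83 bases before the start, and 19 CpG sites. The median over all windows was 5 CpG sites. GGGCGG was present in 31.3% of all 32851 windows, CCAAT in 33%, TATAAA in 12.1%, CACGTG in 5.69% and TGACGTCA in 1.44%.

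The catalytic pair was examined first. Mettl3 (ENSMUSG00000022160.19), the methyltransferase itself, stood at 8.91, 7.94, 5.95 and 6.91 CPM in females on the high fat diet and at 4.78, 5.43, 4.61 and 6.38 CPM in females on the normal diet. In males it stood at 6.13, 5.94, 5.67 and 7.00 CPM on the high fat diet and at 5.39, 5.39, 7.00 and 6.63 CPM on the normal diet. Replicates 1 and 2 of females on the high fat diet were the highest of all 16 libraries, and replicate 3 lay inside the normal diet range. The quasi-likelihood test of edgeR over all tested genes, with Benjamini-Hochberg adjustment, called 2 of the 9 genes between the diets in females, Mettl3 higher and Rbm15 lower, against 11.5% of all genes called, 5.74% higher and 5.76% lower. Mettl3 was higher by 0.48 ± 0.15 on the log2 scale (SE; adjusted p = 0.0475). In males the log2 difference was 0.02 (95% interval -0.30 to 0.34, adjusted p = 0.957).

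The call of Mettl3 in females sat at the threshold. The edgeR adjusted p was 0.13 without replicate 1, 0.0954 without replicate 2 and 0.0748 without replicate 4 of females on the high fat diet. It was 0.107, 0.0801 and 0.107 without replicates 1, 2 and 3 of females on the normal diet. Leaving out a male library also ended the call: 0.0588, 0.0507 and 0.0537 without replicates 2, 3 and 4 on the high fat diet, and 0.0522 and 0.0515 without replicates 3 and 4 on the normal diet. Averaging the alike replicates 2 and 3 of males on the high fat diet gave 0.051. Of the exonic bases of Mettl3 18.4% are shared with Tox4 on the opposite strand (GENCODE M21, an older annotation than that of the files), and whether counting used strand is not stated. Tox4 differed by -0.06 ± 0.10 (adjusted p = 0.745) between the diets in females.

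Mettl14 (ENSMUSG00000028114.17), the RNA-binding partner of METTL3, stood at 7.76, 7.18, 7.52 and 7.06 CPM in females on the high fat diet and at 5.75, 6.53, 5.16 and 5.65 CPM on the normal diet. These groups did not overlap, which held for 18.3% of all tested genes in this comparison, but the log2 difference of 0.35 ± 0.15 was not called (edgeR adjusted p = 0.141). In males the values were 8.96, 6.04, 7.90 and 7.13 CPM on the high fat diet and 5.11, 6.16, 8.30 and 7.50 CPM on the normal diet, and these overlapped widely. The male difference was 0.15 ± 0.15 (adjusted p = 0.567).

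The TPM ratio of Mettl3 to Mettl14 within a library does not depend on scaling between libraries. It was 1.65, 1.65, 1.16 and 1.42 in females on the high fat diet and 1.01, 1.40, 1.04 and 1.41 in males on that diet. On the normal diet it was 1.22, 1.19, 1.29 and 1.63 in females and 1.57, 1.31, 1.25 and 1.32 in males. All groups overlapped. The log2 ratio was higher in females than in males on the high fat diet by 0.28 (exact two-sided permutation p = 0.171, adjusted p = 0.457 over the 8 tests of both ratios). The diet differences in the log2 ratio were 0.14 in females (exact p = 0.429) and -0.18 in males (exact p = 0.314), and none of these passed the test.

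Rbm15 (ENSMUSG00000048109.11), an RNA-binding subunit of the split ends family, was lower on the high fat diet in both sexes. It stood at 3.59, 6.09, 4.15 and 5.22 CPM in females on the high fat diet and at 11.9, 8.49, 8.86 and 7.19 CPM on the normal diet. In males it stood at 5.17, 5.81, 6.46 and 5.40 CPM on the high fat diet and at 8.07, 7.65, 12.0 and 9.99 CPM on the normal diet. The highest of the 8 high fat diet values, 6.46 CPM, was below the lowest of the 8 normal diet values, 7.19 CPM. On TPM the separation was not complete. Replicate 2 of females on the high fat diet and replicate 4 of females on the normal diet both stood at 2.01 TPM. How many of all genes separated 8 against 8 was not counted. Between the diets 18.3% of all genes did not overlap in females and 18.5% in males. Averaged over the sexes, Rbm15 fell by 0.83 ± 0.13 on the log2 scale (edgeR adjusted p = 0.000323). This contrast called 2 of the 9 genes, Rbm15 lower and Virma higher, against 24.4% of all genes, 12.4% higher and 12% lower.

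The Rbm15 call between the diets in females, a fall of 0.93 ± 0.19 (edgeR adjusted p = 0.00467), held in all 24 alternative settings. Its size was -0.45 on log2(TPM + 1) (limma adjusted p = 0.0327) and -0.66 on log2(TPM + 0.1) (adjusted p = 0.0316). Relative to the median of all genes on those scales it was -0.60 and -0.88. In males, where Rbm15 was the 1 member of 9 called, against 11.4% of all genes (6.03% higher, 5.36% lower), the fall was 0.72 ± 0.19 (adjusted p = 0.0195). Its call was lost without replicate 4 of the high fat diet (adjusted p = 0.0531), without replicate 3 of the normal diet (0.0723), on log2(TPM + 1) (0.0673) and on log2(TPM + 0.1) (0.0703). The diet by sex interaction (females minus males) was -0.21 ± 0.27 for Rbm15 (95% interval -0.77 to 0.35, adjusted p = 0.791).

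Rbm15b (ENSMUSG00000074102.5), the paralog of Rbm15, was not called between the diets in either sex. Its values were 13.2, 14, 12.8 and 11.3 CPM in females on the high fat diet and 14.9, 13.4, 15.4 and 16.2 CPM on the normal diet, which overlapped. In males they were 19.2, 14.2, 15.3 and 17.4 CPM on the high fat diet and 13.8, 16.3, 21.6 and 21.5 CPM on the normal diet, again with overlap. The log2 diet difference was -0.23 ± 0.14 in females (edgeR adjusted p = 0.317) and -0.15 ± 0.14 in males (adjusted p = 0.536).

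The TPM ratio of Rbm15 to Rbm15b put the paralogs side by side in each library. It was 0.418, 0.668, 0.5 and 0.713 in females on the high fat diet and 1.23, 0.978, 0.881 and 0.681 on the normal diet. In males it was 0.413, 0.628, 0.650 and 0.478 on the high fat diet and 0.9, 0.725, 0.856 and 0.713 on the normal diet. The male groups did not overlap, and in females only replicate 4 of each group crossed. The log2 ratio was lower on the high fat diet by 0.58 in males (-0.58, exact two-sided permutation p = 0.0286, the smallest that 4 against 4 allows) and by 0.71 in females (-0.71, exact p = 0.0571). Adjusted over the 8 ratio tests both came to 0.229, so neither passed. Between the sexes the log2 ratio differed by 0.08 on the high fat diet (exact p = 0.657).

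**Figure D2:**
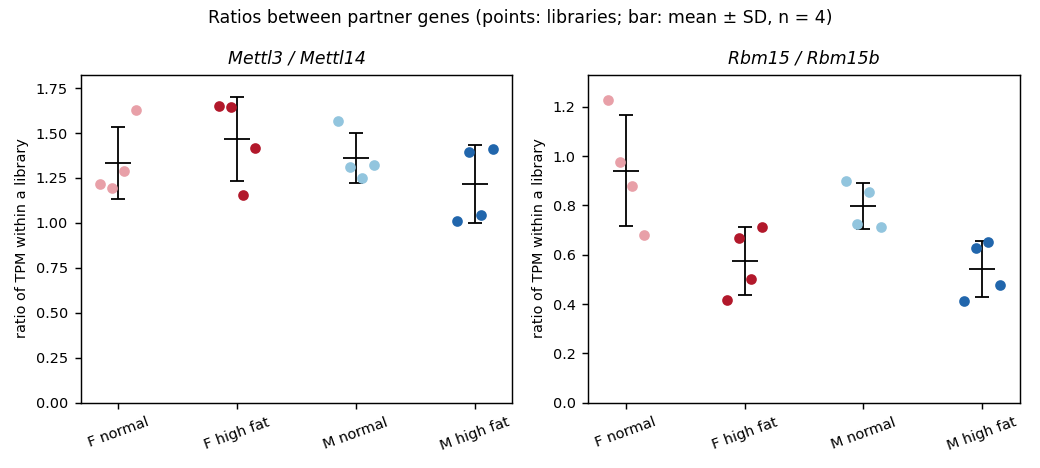
TPM ratio within each library of Mettl3 to Mettl14 (left) and of Rbm15 to Rbm15b (right), with points for libraries and bars for mean ± SD (n = 4). The Rbm15 to Rbm15b ratio lies between 0.413 and 0.713 on the high fat diet and between 0.681 and 1.23 on the normal diet, while the Mettl3 to Mettl14 ratio overlaps in all groups.

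Of the scaffold subunits, Virma (ENSMUSG00000040720.16), a large scaffold protein that steers methylation toward the ends of transcripts, was higher on the high fat diet when the sexes were averaged. It stood at 22.1, 26.5, 23.7 and 24.4 CPM in females on the high fat diet and at 19.1, 18.1, 23.1 and 23.4 CPM on the normal diet. In males it stood at 26.1, 22.5, 24.5 and 29.1 CPM on the high fat diet and at 16.7, 19.6, 21.5 and 22.1 CPM on the normal diet. The male groups did not overlap, as was so for 18.5% of all genes, and the female groups did. The average rise was 0.28 ± 0.08 (edgeR adjusted p = 0.0206). It was 0.0501 without replicate 4 of males on the high fat diet, which held the highest Virma value. In males alone the difference of 0.35 ± 0.12 missed the threshold (adjusted p = 0.0601), and DESeq2 called it.

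Wtap (ENSMUSG00000060475.14), the adaptor that binds the METTL3 and METTL14 pair, had the narrowest TPM range of the 9 genes. It ranged from 35.2 to 39.3 CPM and from 33.7 to 45.0 CPM in females on the high fat and normal diet, and from 36.1 to 40.8 CPM and from 32.9 to 37.3 CPM in males. Replicate 1 of females on the normal diet was the highest of all libraries at 45.0 CPM. The interval of the log2 diet difference was -0.20 to 0.20 in females (edgeR adjusted p = 0.991) and -0.03 to 0.38 in males (adjusted p = 0.246).

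Cbll1 (ENSMUSG00000020659.18), which encodes a RING finger protein of the complex, showed no called difference. It stood at 8.16, 12.6, 13.5 and 11 CPM in females on the high fat diet and at 11.4, 13.8, 11.1 and 11.4 CPM on the normal diet. Males had 12.1, 10.5, 11.2 and 12.4 CPM on the high fat diet and 11.2, 12.1, 16.1 and 15.8 CPM on the normal diet. Replicate 1 of females on the high fat diet was the lowest of all libraries. The log2 diet difference was -0.08 ± 0.15 in females (edgeR adjusted p = 0.776) and -0.26 ± 0.15 in males (adjusted p = 0.285).

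Mettl16 (ENSMUSG00000010554.15) stood at 17.0, 18.5, 14.9 and 16.9 CPM in females on the high fat diet and at 15.2, 13.6, 15.4 and 13.9 CPM on the normal diet. In males it stood at 16.6, 17.1, 18.3 and 21.3 CPM on the high fat diet and at 13.5, 13.5, 18.7 and 17.0 CPM on the normal diet. The log2 difference was 0.21 ± 0.12 in females (edgeR adjusted p = 0.26) and 0.23 ± 0.12 in males (adjusted p = 0.231), with overlapping groups in both. Averaged over the sexes it was 0.22 ± 0.08 (edgeR adjusted p = 0.0658). That average was called without replicate 3 of females on the high fat diet, without replicate 1 of males on the high fat diet or without replicate 3 of males on the normal diet, and then 3 of the 9 genes were called. The other averages were 0.25 ± 0.11 for Mettl3 (adjusted p = 0.098), 0.25 ± 0.11 for Mettl14 (0.0967) and between -0.19 and 0.15 for Wtap, Rbm15b, Zc3h13 and Cbll1.

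**Figure D3:**
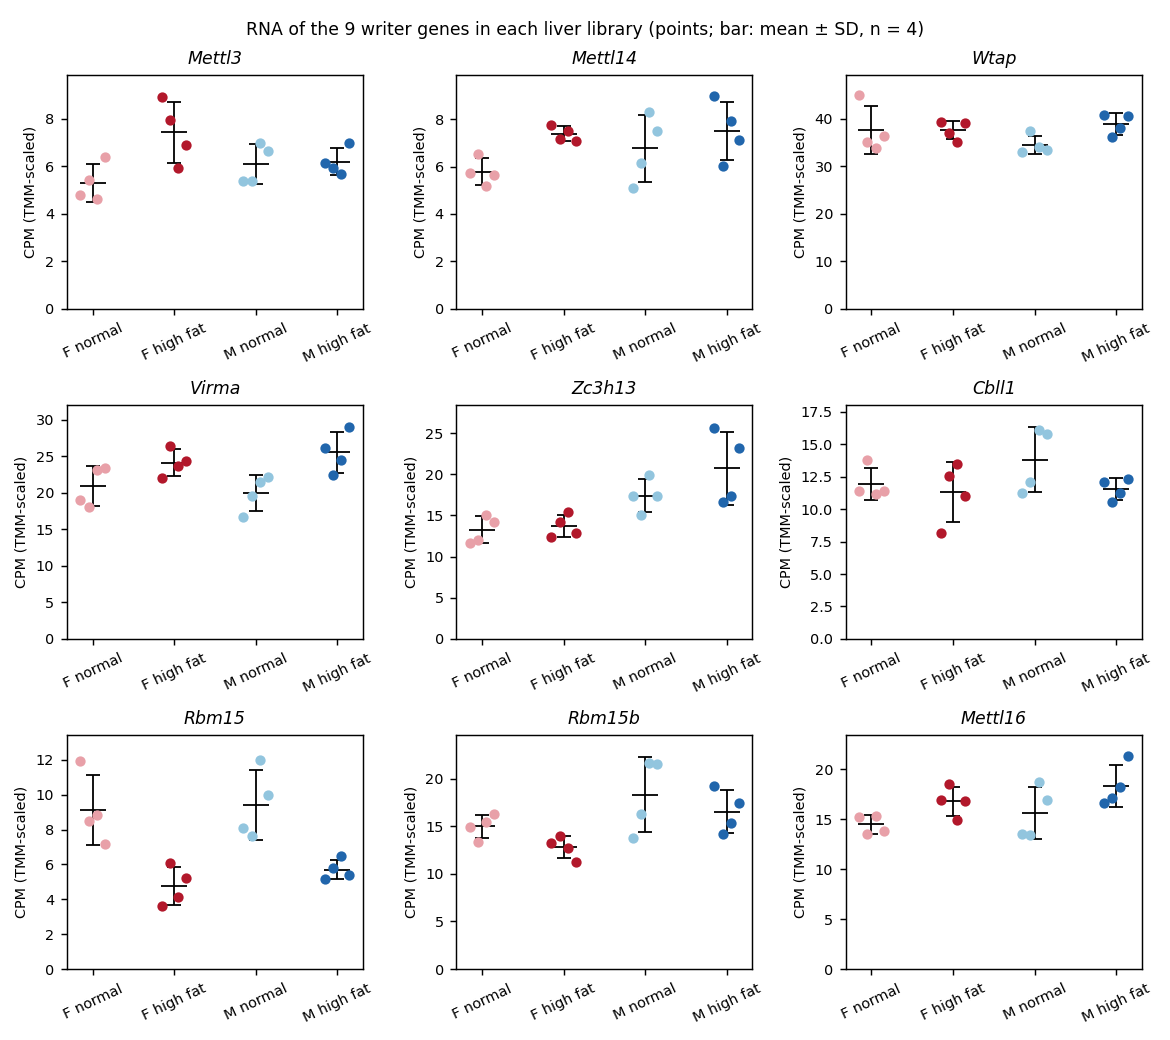
CPM of each writer gene in the 16 libraries, with points for libraries and bars for mean ± SD (n = 4); each panel has its own axis from 0. Rbm15 is lower in all 8 high fat diet libraries (3.59 to 6.46 CPM) than in the 8 normal diet libraries (7.19 to 12.0 CPM), and Zc3h13 is higher in males than in females on the high fat diet.

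Females and males were then compared on the same diet, females minus males. On the high fat diet Zc3h13 (ENSMUSG00000022000.12), a zinc finger scaffold that helps to keep the complex in the nucleus, was the 1 member of 9 called, against 20.4% of all genes, 8.84% higher and 11.6% lower in females. It stood at 12.4, 14.2, 15.4 and 12.9 CPM in females and at 25.6, 16.7, 17.4 and 23.2 CPM in males, so the groups did not overlap. The log2 difference was -0.59 ± 0.14 (edgeR adjusted p = 0.00759), or 13.7 ± 1.36 against 20.7 ± 4.41 CPM (SD, n = 4). On the normal diet Zc3h13 stood at 11.7, 12.1, 15.1 and 14.2 CPM in females and at 17.3, 15, 20.0 and 17.3 CPM in males, with a log2 difference of -0.39 ± 0.14 (adjusted p = 0.0685). The interaction of Zc3h13 was -0.20 ± 0.20 (adjusted p = 0.725), so the size of the sex difference was not shown to depend on diet.

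The male values of Zc3h13 on the high fat diet fell into a higher pair, replicates 1 and 4, and a lower pair, replicates 2 and 3. Albumin took 3.73% and 4.01% of the counts in replicates 1 and 4, and 5.91% and 5.84% in replicates 2 and 3. In females on that diet it took 7.39% to 8.75%. The call remained without any 1 library, with an adjusted p of 0.0353 without replicate 1 and 0.0302 without replicate 4 of males on the high fat diet. It was 0.00571 with replicates 2 and 3 averaged. The difference was -0.32 on log2(TPM + 1) (limma adjusted p = 0.0896) and -0.39 on log2(TPM + 0.1) (adjusted p = 0.101), which ended the call. Relative to the median of all genes on those scales it was -0.42 and -0.55.

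Rbm15b had a second sex difference without overlap on the high fat diet, with females at 11.3 to 14 CPM and males at 14.2 to 19.2 CPM. Groups without overlap made up 22.7% of all genes in this comparison. The log2 difference was -0.37 ± 0.14 (edgeR adjusted p = 0.0729), which was not called, and -0.29 ± 0.14 on the normal diet (adjusted p = 0.172). Mettl3 had the opposite sign on the high fat diet, at 0.27 ± 0.15 (95% interval -0.05 to 0.59, adjusted p = 0.222). Rbm15 was at -0.26 ± 0.19 (adjusted p = 0.347). For Mettl14, Wtap, Virma, Cbll1 and Mettl16 the sex difference on the high fat diet lay between -0.12 and -0.02, and 8 of the 9 genes had a negative value. Of all genes 49% had a positive value in this comparison. On log2(TPM + 1), where the median of all genes moved to 0.10, the differences of Mettl14, Wtap, Virma, Cbll1 and Mettl16 were 0.0097 to 0.11. Relative to that median Wtap, Virma, Cbll1 and Mettl16 stayed negative, between -0.093 and -0.012, and Mettl14 stood at 0.012, or at -0.0093 on log2(TPM + 0.1).

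On the normal diet none of the 9 genes was called between the sexes by edgeR or DESeq2, against 15.7% of all genes by edgeR (7.03% higher, 8.68% lower in females). No member was free of overlap there, against 22% of all genes, and 1 of the 9, Zc3h13, had an unadjusted p under 0.05. Fitted to those groups alone, Zc3h13 was called. Without replicate 1 of males on the high fat diet Zc3h13 was called, and without replicate 1 of males on the normal diet Rbm15b was called. The median log2 sex difference of the 9 genes was -0.20 on the normal diet and -0.08 on the high fat diet, beside -0.0020 and -0.01 for all tested genes.

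No writer gene passed the test of the diet by sex interaction, with edgeR or with DESeq2. The interaction was called for 0.677% of all genes, 0.264% higher and 0.413% lower. Mettl3 came nearest at 0.47 ± 0.22 (edgeR adjusted p = 0.371), and it alone had an unadjusted p under 0.05. The call of Mettl3 in females and not in males is therefore not shown to be a difference between the sexes. Since 1 or 2 of 9 genes called in a comparison is near the share of all genes called, the counts themselves do not set the writer genes apart. The interaction of the other members lay between -0.21 and 0.20. For 6 of the 9 genes the diet difference was positive in both sexes, and for Rbm15, Rbm15b and Cbll1 it was negative in both. Of all genes 50.2% were positive in females and 51.2% in males, and how many kept their sign in both was not counted. Among the 6, Wtap stood at only 0.0025 in females and Mettl3 at 0.018 in males. In females on log2(TPM + 1) Rbm15b and Cbll1 stood at -0.14 and -0.028 relative to the median of all genes, which had moved by 0.15.

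**Figure D4:**
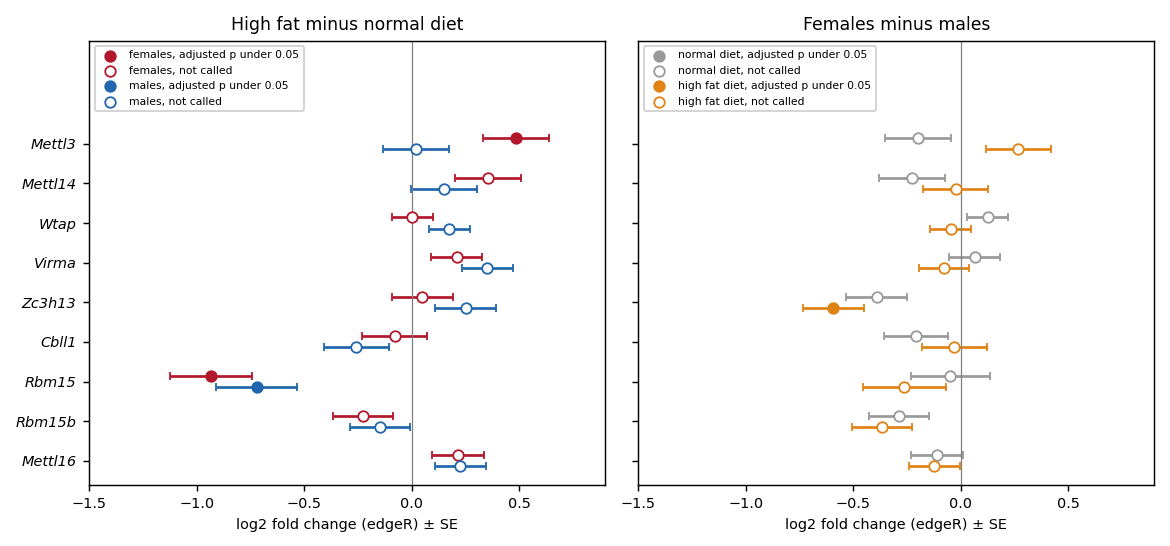
Log2 fold changes ± SE from edgeR for the 9 writer genes: high fat minus normal diet in females and males (left), and females minus males on each diet (right); filled points have an adjusted p under 0.05. Rbm15 is called in both sexes (-0.93 and -0.72), Mettl3 in females (0.48) and Zc3h13 between the sexes on the high fat diet (-0.59).

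The scale of the values mattered for the smaller differences. On log2(TPM + 1) the median of all tested genes moved by 0.15 between the diets in females, by 0.05 in males and by 0.10 between the sexes on the high fat diet. With log2(TPM + 1) and limma, 4 of the 9 genes were called between the diets in females, Mettl3, Mettl14 and Virma higher and Rbm15 lower. Relative to the median of all genes those differences were 0.44 for Mettl3, 0.30 for Mettl14, 0.23 for Virma and -0.60 for Rbm15. In males none was called by limma on that scale, where 4 had an unadjusted p under 0.05, with Virma at 0.32 and Rbm15 at -0.48 relative to the median. Averaged over the sexes 6 were called: Mettl3, Mettl14, Wtap, Virma and Mettl16 higher and Rbm15 lower. Wtap stood only 0.12 above the median there. The share of all genes called by limma on that scale is not given here. The counts of 4 and 6 therefore do not set the writer genes apart. The directions of Rbm15, Mettl3 in females, Virma between the diets and Zc3h13 between the sexes were the same on counts and on TPM.

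**Figure D5:**
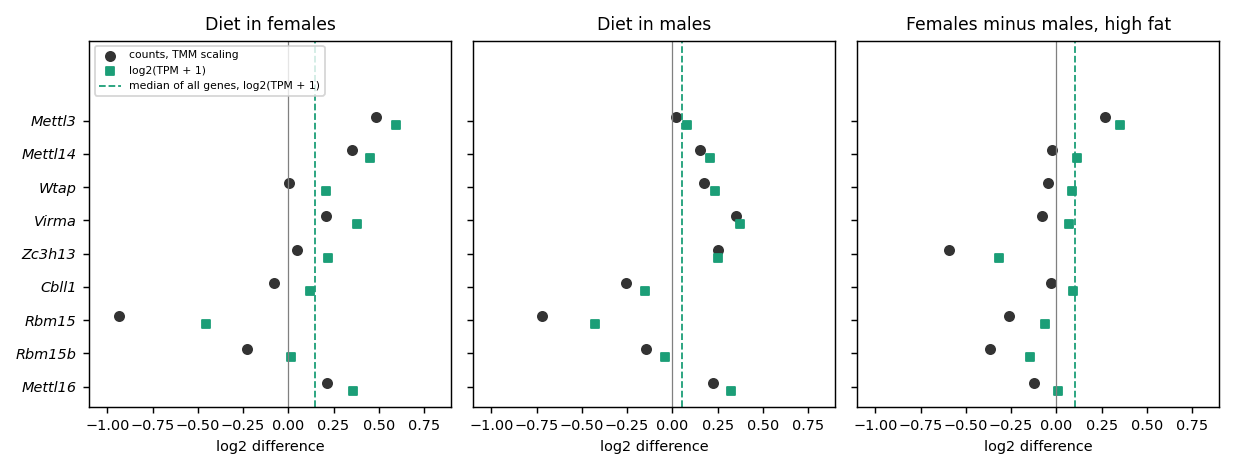
Log2 differences of the 9 writer genes from counts with TMM scaling (circles) and from log2(TPM + 1) (squares), for diet in females, diet in males and females minus males on the high fat diet; the dashed line is the median of all tested genes on log2(TPM + 1). In females that median lies at 0.15, and most squares lie to the right of their circles.

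How alike the 9 genes were across the 16 libraries was described by the mean absolute difference between standardised log2 CPM profiles, in SD units. Virma and Mettl16 were the closest members at 0.588. The nearest member to Mettl14 was Mettl16 at 0.694, and the nearest to Mettl3 was Mettl14 at 0.729. Rbm15b and Cbll1 were 0.699 apart. Rbm15 was farthest from Virma at 1.51. These profiles share libraries and scaling, so they are a description only.

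Over all genes, the same measure named the 3 tested genes nearest to Mettl3 and to Rbm15. Being nearest in profile fixes the direction of these genes, so their differences are given as values with no test. Nearest to Mettl3 were Trp53 (0.466), Xpo1 (0.471) and H1f0 (0.497), beside a median of 1.11 over 10209 candidates. Between the diets the log2 differences in females and males were 0.38 and 0.015 for Trp53, the p53 tumour suppressor gene, 0.38 and -0.031 for Xpo1, a nuclear export receptor, and 0.45 and 0.22 for H1f0, a linker histone. Nearest to Rbm15 were Tob2 (0.353), Tsc22d3 (0.356) and Herpud1 (0.362), beside a median of 1.02. Tsc22d3, a glucocorticoid-induced leucine zipper gene, averaged 53.6 and 157 CPM in females on the high fat and normal diet and 72.5 and 160 CPM in males. Herpud1, which encodes an endoplasmic reticulum stress protein, averaged 191 and 451 CPM in females and 225 and 620 CPM in males. The log2 diet differences in females and males were -1.55 and -1.14 for Tsc22d3, -1.24 and -1.46 for Herpud1, and -0.84 and -0.54 for Tob2, an antiproliferative gene.

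The other genes of the pathway were taken from lists of 31 genes: erasers, readers, other m6A methyltransferases, methyl donor supply, the exon junction complex and Spen. Of these 29 were tested; the readers Igf2bp1 and Igf2bp3 had at most 1 and 4.22 counts in any library. Between the diets in females none was called higher and 4 lower, 2 of 8 readers and 2 of 8 methyl donor genes, which is 13.8% of the list beside 11.5% of all genes. In males 2 were called higher and none lower, 6.9% beside 11.4%. Averaged over the sexes 4 were higher and 5 lower, 31% beside 24.4%. Counts this close to the background are no result about the list. With the reported edgeR fit no listed gene passed the interaction, and 4 had an unadjusted p under 0.05. DESeq2 called 3: Ythdc2 (adjusted p = 0.0181), Mat2a (0.0305) and Bhmt (0.00419). Their edgeR interactions were -0.90 (adjusted p = 0.0817), -0.61 (0.109) and -1.40 (0.0668). With no filter edgeR called Ythdc2 (0.0353). Whether their diet differences were called different between the sexes thus depended on the test and setting.

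The target of METTL16 and the methyl donor genes had the following values. Mat2a, a methionine adenosyltransferase, averaged 88.4 ± 8.30 CPM in females on the high fat diet and 126 ± 13.5 CPM on the normal diet, without overlap, and 111 ± 18.1 and 103 ± 9.07 CPM in males. It fell by 0.51 ± 0.12 in females (edgeR adjusted p = 0.0109). On log2(TPM + 1) the difference was -0.25 (limma adjusted p = 0.179), where the median of all genes moved by 0.15. Ahcy, which clears S-adenosylhomocysteine, fell by 0.63 ± 0.16 in females (adjusted p = 0.0147), and by 0.34 on average over the sexes (adjusted p = 0.033). On log2(TPM + 1) neither Ahcy difference was called, at -0.38 in females (limma adjusted p = 0.0644) and -0.19 on average (adjusted p = 0.162). The median of all genes moved there by 0.15 in females and by 0.10 on average. Relative to it both Ahcy falls were larger. Without replicate 2 of females on the normal diet the female p was 0.0637, and leaving out 8 of the 16 libraries, 1 at a time, ended the average call (up to 0.0834). Bhmt, which remethylates homocysteine, rose by 1.25 ± 0.24 in males (adjusted p = 0.00292) from 1754 ± 241 to 4160 ± 1784 CPM, with no overlap, and this held in all 24 settings. Bhmt was also higher in females than in males on the normal diet, by 0.77 (adjusted p = 0.0351, up to 0.0922 without 1 library and 0.0893 with no filter on low counts). Its average rise was 0.55 (adjusted p = 0.024). That call was lost without replicate 4 of females (edgeR adjusted p = 0.051) and without replicates 2 and 3 of males (0.0544 and 0.0507) on the high fat diet, with those male replicates averaged (0.46, adjusted p = 0.051) and with no filter (0.0671). Mtrr, a methionine synthase reductase, had an average difference of -0.29 (adjusted p = 0.0455), a call lost in 16 of 23 settings, among them the averaged male replicates (edgeR adjusted p = 0.0869) and log2(TPM + 1) (limma adjusted p = 0.445).

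Of the 2 erasers and 8 readers tested, 1 eraser and 2 readers were called between the sexes on the high fat diet, where 20.4% of all genes were called. Fto, an m6A demethylase, differed by -0.16 in females (edgeR adjusted p = 0.334), by 0.14 in males (0.398) and by -0.29 between the sexes on the high fat diet (0.0543). On the high fat diet Alkbh5, the other demethylase, averaged 77.6 ± 11.8 CPM (females) and 99.5 ± 2.61 CPM (males), a difference of -0.36 ± 0.12 (adjusted p = 0.0374). This call was lost in 10 of the 16 fits without 1 library (up to 0.11 without replicate 1 of females on the high fat diet), with the alike male replicates averaged (-0.34, adjusted p = 0.0677), with no filter (0.0929) and with only those groups fitted (0.0843). On log2(TPM + 1) the Alkbh5 difference was -0.19 (limma adjusted p = 0.285), where the median of all genes moved by 0.10. On the same diet Ythdc2, an RNA helicase that binds m6A, averaged 8.0 ± 2.06 CPM (females) and 15.3 ± 1.43 CPM (males), without overlap. That sex difference, -0.94 ± 0.16 (adjusted p = 0.000819), held in all 24 settings. Between the diets in females Ythdc2 fell by 0.64 (adjusted p = 0.0163, 0.0542 without replicate 4 of the high fat diet and also lost without replicate 4 of the normal diet) and Ythdf3 fell by 0.40 (adjusted p = 0.0352, up to 0.118 without 1 library). Ythdf3 also fell on average over the sexes, by 0.33 (adjusted p = 0.00969). None of these diet calls held on log2(TPM + 1): Ythdc2 stood at -0.26 in females (limma adjusted p = 0.149), and Ythdf3 at -0.16 in females (adjusted p = 0.33) and -0.16 on average (adjusted p = 0.15). The median of all genes moved on that scale by 0.15 in females and by 0.10 on average. Relative to it these falls were larger. The Ythdf3 call in females was also lost with no filter (edgeR adjusted p = 0.0635) and with only those groups fitted (0.0649).

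The remaining calls among the listed genes were small in number. Igf2bp2, a reader at or below 2.97 CPM, rose by 1.34 in males (edgeR adjusted p = 0.0218, up to 0.0711 without 1 library and 0.0547 with only those groups fitted) and by 1.00 on average (adjusted p = 0.00907). Mettl4, from the list of other m6A methyltransferases, rose on average by 0.27 (adjusted p = 0.0185) and Magohb, an exon junction core gene, by 0.58 (adjusted p = 0.0115). Trmt112, a cofactor of methyltransferases, differed by -0.26 (adjusted p = 0.0289) and the reader Ythdf1 by -0.25 (adjusted p = 0.0495). Both of these average calls were lost with the alike male replicates averaged (edgeR adjusted p = 0.0662 for Trmt112 and 0.101 for Ythdf1), with no filter (0.0672 and 0.072), on log2(TPM + 1) (limma, 0.319 and 0.477) and in 8 and 12 of the 16 fits without 1 library. Hnrnpc was higher in females than in males by 0.27 on the high fat diet (adjusted p = 0.0243, up to 0.0567 without 1 library) and by 0.26 on the normal diet (adjusted p = 0.0358, up to 0.0925). With no filter both Hnrnpc calls were lost (edgeR adjusted p = 0.121 and 0.168), the first also with only those groups fitted (0.0648) and the second on log2(TPM + 1) (limma, 0.12). Hnrnpa2b1 was lower in females on the normal diet by 0.35 (-0.35, adjusted p = 0.0292, up to 0.0877 without 1 library and 0.129 with no filter). Spen, a split ends relative of Rbm15, differed by -0.58 between the sexes on the high fat diet (adjusted p = 0.0725) and by -0.61 on the normal diet (adjusted p = 0.0695).

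Markers of other liver cells differed between some of the same groups. The summed level of 5 Kupffer cell markers in females was 354 to 519 CPM on the high fat diet. It was 214 to 313 CPM in females on the normal diet and 166 to 362 CPM in males on the high fat diet. Of the 5 markers 4 were called higher in females than in males on the high fat diet, against 8.84% of all genes. Between the diets in females 1 of the 5 was called, higher on the high fat diet, against 5.74% of all genes called higher. Of 5 stellate cell markers 2 were called higher on the high fat diet in females and 2 on average. The shares of all genes called higher were 5.74% and 12.4%. The stellate marker sum was 61.3 to 102 and 63.4 to 89.9 CPM in females on the high fat and normal diet. In males it was 63.7 to 96.4 and 52.1 to 62.9 CPM. Of 5 sinusoidal endothelium markers 1 was called higher on average, against 12.4% of all genes. Their sums on the high fat and normal diet were 133 to 166 and 136 to 155 CPM in females. In males they were 120 to 138 and 113 to 122 CPM. On the high fat diet T and B cell markers summed to 3.48 to 6.79 CPM (females) and 1.23 to 2.85 CPM (males). On the normal diet they summed to 2.33 to 3.74 CPM (females) and 0.65 to 2.18 CPM (males). Adipocyte markers summed to 7.58 to 37.8 CPM in males and 2.22 to 4.5 CPM in females on the high fat diet, and pancreatic acinar markers reached 22 CPM in males on the high fat diet. The hepatocyte marker sum was 103000 to 117000 CPM in females on the normal diet and 79600 to 97500 CPM on the high fat diet. Males had 85100 to 93800 CPM on the normal diet. Their part in the differences of Mettl3, Rbm15, Virma and Zc3h13 was not tested.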

How the data were processed

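Poly(A) RNA of 16 mouse liver samples was sequenced. Per the submitters' processing notes, the tools were STAR and RSEM with GRCm39; versions, annotation release and strand setting are not given in the sources used here. The authors deposited RSEM expected counts (4.89% of entries not whole) and TPM. Expected counts were rounded. Symbols were matched for 51487 of 78317 genes, which held 98.97% of counts. Genes were filtered with filterByExpr (edgeR 4.0.16, R 4.3.3), TMM-scaled and fitted with the robust quasi-likelihood test, 1 mean per group, for 6 contrasts; p-values were two-sided and adjusted over 14781 genes, and a gene was called under 0.05. Settings such as DESeq2 1.42.0, RLE scaling, no filter, only the groups compared, limma 3.58.1 on log2(TPM + 1) or log2(TPM + 0.1), a replicate block, averaged alike replicates and leaving out each library were alternatives. The fit was tested on simulated data. Ratios used exact permutation tests over 70 regroupings. Named were the 9 genes, listed genes called in any contrast, Fto, Alkbh5, Mat2a and Spen, the 3 genes nearest in profile to Mettl3 and to Rbm15, sex genes and marker sums. Members and lists were chosen with earlier results of these data known. Deviations of same-numbered libraries correlated weakly (-0.159 to 0.18), and numbers were not used to pair samples in the main fit. Total counts per library ranged from 22228115 to 41420589.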

Additional observations from a re-analysis of the deposited data

Results flagged for a closer look

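Cbll1 in replicate 2 of females on the normal diet stood at 13.8 CPM, apart from the other 3 libraries of its group at 11.1 to 11.4 CPM. The gap took 0.886 of the range of the group, above the 95% critical value for 4 samples. It was the 1 such value among 44 groups of 4 tested, and chance gives about 1 in 20. Without that library the log2 diet difference of Cbll1 in females was 0.01, against -0.08 with it.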

How the results depend on the processing

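Rbm15 between the diets in females and averaged over the sexes was called in every alternative. The number of writer genes called between the diets in females, 2 by the reported test, was 1 with no filter on low counts, 1 when only those groups were fitted, 1 with the alike male replicates averaged, 4 on log2(TPM + 1), 3 on log2(TPM + 0.1) and 1 to 2 without 1 library. In males, 1 became 2 with DESeq2, 2 with the replicate block (Virma and Rbm15), 0 on log2(TPM + 1) and on log2(TPM + 0.1), and 0 to 1 without 1 library. The average over the sexes went from 2 to 6 on both TPM scales and ranged from 1 to 3 without 1 library. Between the sexes, 1 became 0 on both TPM scales on the high fat diet; on the normal diet, 0 became 1 with only the groups compared and ranged from 0 to 1 without 1 library. The cause was not tested. The share of all genes called in each of these settings is not given here, so the counts do not set the writer genes apart.

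On log2(TPM + 1) and log2(TPM + 0.1) the median of all genes moved by 0.10 to 0.22 in the comparisons listed next, and these uncalled differences changed sign: Cbll1 by diet in females (0.12, 0.14), Rbm15b by diet in females (0.014, 0.020), the interactions of Mettl16 (0.034, 0.038), Rbm15b (0.055, 0.068) and Virma (0.0068, 0.0054), and on the high fat diet between the sexes Cbll1 (0.091, 0.11), Mettl14 (0.11, 0.14), Mettl16 (0.0097, 0.011), Virma (0.069, 0.082) and Wtap (0.088, 0.091). Relative to that median all of them kept their sign, except Mettl14 at 0.012 on log2(TPM + 1). The interaction of Mettl16 was also 0.0028 with DESeq2 and 0.0018 with RLE scaling, the sex difference of Mettl14 on the high fat diet 0.0027 with only the groups compared, and the Mettl3 to Mettl14 ratio between the sexes on the normal diet 0.0026 from expected counts.

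Without 1 library, signs changed within these ranges: by diet, Cbll1 -0.17 to 0.052 and Wtap -0.038 to 0.12 in females and Mettl3 -0.046 to 0.086 in males; interactions of Mettl16 -0.11 to 0.078 and Rbm15b -0.17 to 0.056; between the sexes on the high fat diet, Cbll1 -0.11 to 0.10, Mettl14 -0.12 to 0.10, Wtap -0.082 to 0.0075 and the Rbm15 to Rbm15b log2 ratio -0.046 to 0.22; on the normal diet, Rbm15 -0.20 to 0.085, Virma -0.0082 to 0.13 and the Mettl3 to Mettl14 log2 ratio -0.14 to 0.032.

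Of 16 same-numbered pairs 3 had a correlation of deviations over 0.1 (range -0.159 to 0.18) and 6 correlated best with their own number. On one diet, females and males with the same number had correlations of 0.0215 to 0.18 (high fat) and 0.0498 to 0.164 (normal), all positive. Between the diets they ran from -0.159 to 0.137 in females and from -0.134 to 0.0697 in males. Correlations this weak cannot show whether the numbers pair samples. Besides the Virma call in males (adjusted p = 0.0326), the replicate block changed no other call of a writer gene. At 111 to 1439 counts per gene and library and 4 samples a group, standard errors of 0.10 to 0.19 between a pair of groups set what could be called.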
